A study of Drosophila melanogaster with 3 samples.

Results

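The regions described here are 750 peaks of chromatin binding that lay between genes and away from promoters, of 8708 thresholded peaks on genome build dm6 in an anti-GFP ChIP-seq experiment on Drosophila melanogaster embryos. The flies were a transgenic line that carried CG15514 with a C-terminal eGFP tag, and whole embryos of both sexes, pooled and aged 0 to 24 hours, were assayed. All 3 samples were biological replicates of this 1 group, and there was no second genotype, treatment or stage. Whether the line also kept an untagged copy of CG15514 was not given in the labels. A peak was counted if its summit, the base of highest enrichment, lay outside every annotated gene body and more than 500 bp from every annotated transcription start site (TSS), and if its signal in the thresholded list was below 5000. The members were therefore chosen by summit position and by signal, and both are given below as a description. Transposable elements were not counted as genes. Beside them, 5323 peaks of the same signal range lay within 500 bp of a TSS (promoter peaks), 1237 lay in introns more than 2000 bp from a TSS (distal intronic peaks), 950 in introns closer to a TSS and 246 in exons or untranslated regions. The other 202 peaks had a signal of 5000 or more, and 6 of these were intergenic and were left out.

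Intergenic DNA between fly genes holds enhancers, which activate genes at a distance, silencers such as Polycomb response elements, and insulators, which separate the regulatory domains of neighbouring genes. In Drosophila the zinc finger proteins CTCF and Su(Hw) are insulator-binding proteins that recognise long sequence motifs. The factors Dref and M1BP bind the core promoter elements DRE and Ohler 1, which are typical of genes expressed in most tissues.

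The sequences below show the motifs that the results turn on: the CTCF core AGNNGGCGC (A or G at the first N, G or T at the second), the GAAC palindrome, the DRE TATCGATA and the Su(Hw) core GCATACTT, each found on either strand. They are from the plus strand of the Release 6 reference (dm6), read 5′ to 3′, with each named match in capitals, and a strong member whose printed bases touched no gene is shown for each motif. The first, between bun and nub, holds a CTCF core on the minus strand and a GAAC palindrome side by side, and the palindrome lay 1 bp from the summit. In the second, between jp and brwl, the CTCF core lay 13 bp from the summit. In the third, between Gasp and Obp83cd, the palindrome lay at the summit itself, and the Grainy head sequence AACCGGTT lies inside it. The fourth, between hry and SrpRbeta, has a DRE and the fifth, between Glut3 and abd-A, has a Su(Hw) core 72 bp from its summit. The last is the member of highest signal among those printed, between Mgstl and Cbs. Its 101 bases hold a TATA box TATAAA and an initiator TCAGT(C/T), both on the minus strand and left in small letters. No full match to the CTCF or Su(Hw) core, the DRE, or Ohler 1, 6 or 7 occurred in them. The same holds for GAGA, Zelda, Grainy head, the GAAC site GAAC(C/T)AG and the palindrome.
bun-nub, chr2L:12579201-12579301: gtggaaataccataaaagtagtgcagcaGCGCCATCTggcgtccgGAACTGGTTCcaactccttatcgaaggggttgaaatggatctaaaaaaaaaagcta
jp-brwl, chr2L:9567458-9567518: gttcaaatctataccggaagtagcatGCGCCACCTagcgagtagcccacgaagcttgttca
Gasp-Obp83cd, chr3R:6106897-6106957: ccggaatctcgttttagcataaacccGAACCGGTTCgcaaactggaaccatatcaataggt
hry-SrpRbeta, chr3L:8718773-8718833: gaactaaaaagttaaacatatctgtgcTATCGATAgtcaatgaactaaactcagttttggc
Glut3-abd-A, chr3R:16798768-16798828: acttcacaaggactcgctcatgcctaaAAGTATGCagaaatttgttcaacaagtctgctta
Mgstl-Cbs, chrX:21044554-21044654: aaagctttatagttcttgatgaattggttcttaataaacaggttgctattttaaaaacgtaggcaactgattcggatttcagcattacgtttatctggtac

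The CTCF core was more frequent at intergenic peaks than at distal intronic or promoter peaks. It occurred within 100 bp of the summit in 40 of 750 members (5.33%, 95% Clopper-Pearson interval 3.84% to 7.19%). It occurred in 21 of 1237 distal intronic peaks (1.7%, 1.05% to 2.58%), in 90 of 5323 promoter peaks (1.69%, 1.36% to 2.07%) and in 553 of 175652 windows of the same length that tiled the peak-free intergenic DNA more than 500 bp from a TSS (0.315%). The interval of the members did not overlap those of either peak class, and the share was 16.9 times that of the windows. Windows weighted to the GC content of the members held it in 0.259%, and windows that were not mostly repeated sequence in 0.368%. The peak classes were not matched for distance to a TSS, as members began at 501 bp and distal intronic peaks beyond 2000 bp. With member summits more than 1000 bp from every TSS, the CTCF core was in 4.7%.

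The share was similar when the intergenic entries of each replicate list were searched at their own summits. The CTCF core was in 4.54% of 705 such entries in replicate 1, 4.96% of 726 in replicate 2 and 4.9% of 776 in replicate 3. All 3 replicates were above the windows, by 4.48 percentage points on average, with an SD of 0.227 over the 3 shares. An exact sign-flip test over the 3 replicate lists gave p = 0.25, the smallest p that 3 lists allow, and 0.283 after Benjamini-Hochberg adjustment over the 26 motifs searched, so this design could not reach 0.05. The replicate lists also contributed to the thresholded list, so they are not a separate experiment. In 4561 intergenic entries of the pooled list that ranked below the thresholded ones, the core was in 43 (0.943%).

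**Figure D1:**
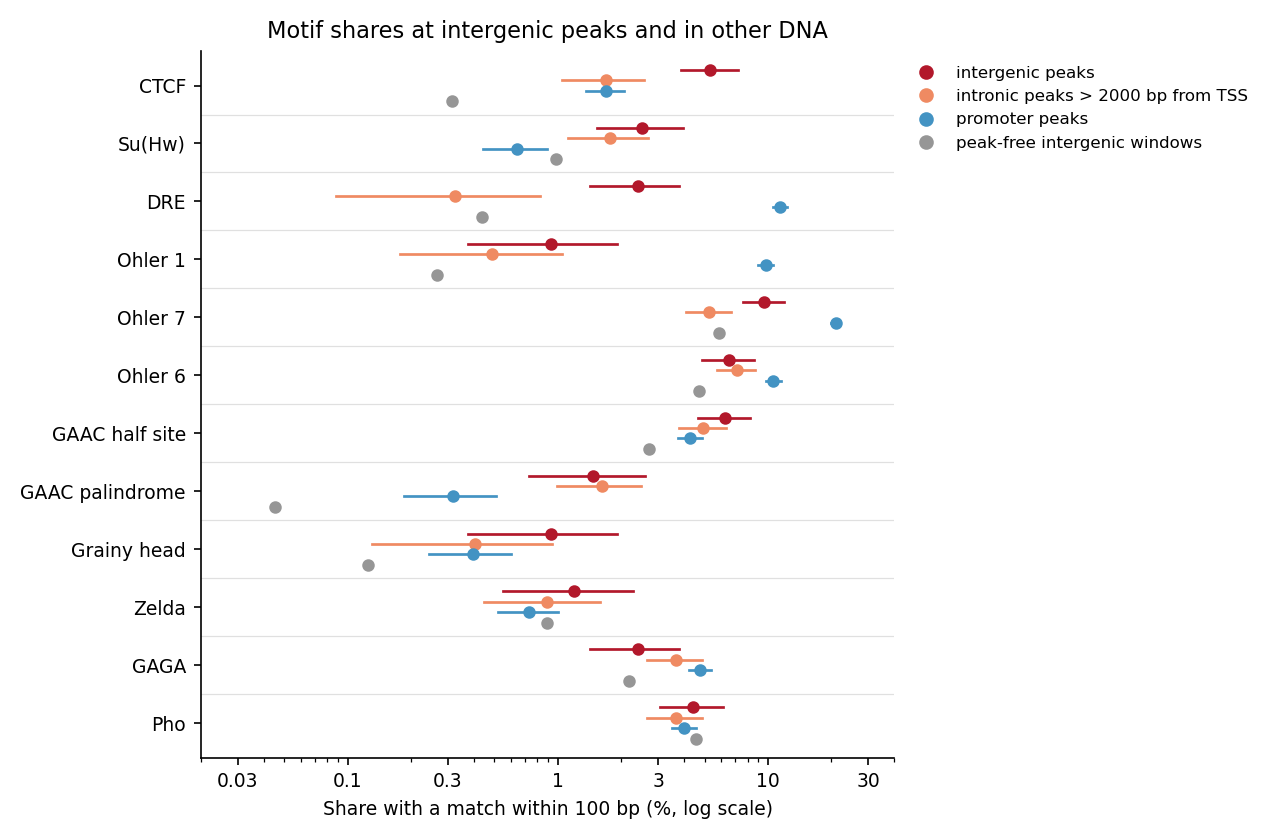
Share of regions with a motif within 100 bp, in percent on a log axis, for 750 intergenic peaks, 1237 distal intronic peaks, 5323 promoter peaks and 175652 peak-free intergenic windows. Lines are 95% Clopper-Pearson intervals of the peak classes. The CTCF core stands at 5.33% in intergenic peaks and below 2% in the other 3 groups, while the DRE and Ohler 1 are highest in promoter peaks.

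Matches to the CTCF core lay close to the summits. The median distance of the nearest match from the summit was 21.5 bp over the 40 members, and 30 of the 40 had it within 50 bp. In bins of 50 bp, 30 members had a match less than 50 bp from the summit and 17 had one at 50 to 99 bp, against 1 to 4 in each bin from 100 to 499 bp. A search of the same summits with no preset motif gave 10 8-mers with the largest share difference between members and windows within 50 bp. Those at places 6 to 9, AGATGGCG, GATGGCGC, GCGCCACC and AGGTGGCG, overlap the CTCF core. They come from the same members and are no separate result. AGATGGCG was in 19 members (2.53%) and 0.241% of windows, and AGGTGGCG was in 17 members (2.27%) and 0.145% of windows. The other 6, which held places 1 to 5 and 10, were rich in A and T. The first of all, AAATATAT, was in 40 members (5.33%) and 2.65% of windows. Members were also lower in GC, with a median of 36.8% within 100 bp, as were distal intronic peaks (36.8%), against 38.8% at promoter peaks and 41.3% in the windows.

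The 40 peaks with a CTCF core spanned the range of signal. Their signals ran from 119 to 2234 with a median of 199, and the other members had a median of 185. The strongest was the summit between bun, which encodes a TSC22-family regulator, and nub, a POU-domain gene, with a thresholded-list signal of 2234. In replicates 1, 2 and 3 the same site had signals of 588, 500.4 and 1168. The summit between jp, which encodes junctophilin, and brwl came second with 2018, and had 399, 413 and 1186 in the replicate lists. These 2 were far above the third, between CG14762 and Optix, a homeobox gene of eye development, at 452. Signals are the authors' caller's and are deposited without a scale between lists, so values are read within a list. Of the 40, 29 had support in replicate 1, 34 in replicate 2, 36 in replicate 3 and 26 in all 3, where support means that 1 of the replicate's 8708 highest entries had its summit no more than 100 bp away. Of all 8708 peaks 79.8%, 80.2% and 90.4% had support in replicates 1, 2 and 3, and 64.2% in all 3. By their flanking genes, 19 of the 40 lay between divergent, 14 between tandem and 7 between convergent protein-coding genes. Peaks with the core also flanked the developmental regulators pros, eya, phyl, slbo and stg, and one lay between Sox21a and Sox21b; these genes were chosen after their values were seen.

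The Su(Hw) core was found at 19 members (2.53%, 1.53% to 3.93%), against 1.78% (1.12% to 2.68%) of distal intronic peaks, 0.639% (0.443% to 0.891%) of promoter peaks and 0.984% of windows. The interval of the members overlapped that of the distal intronic peaks and lay above that of the promoter peaks. Their median signal was 284, against 185 for the members without it. Of the 19, 14 had support in all 3 replicates (73.7%), against 53.5% of all members and 64.2% of all peaks, and support rose with signal. CTCF or Su(Hw) cores together were in 57 members (7.6%, 5.81% to 9.73%), against 3.23% of distal intronic peaks, 2.31% of promoter peaks and 1.29% of windows, and 2 members had both. One of the Su(Hw) peaks lay 1730 bp from the nearest TSS between Glut3 and abd-A, a Hox gene of the bithorax complex. It had a signal of 719, and 169.8, 175 and 377 in replicates 1, 2 and 3.

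Core promoter elements were present at members, below their frequency at promoter peaks. The DRE was in 18 members (2.4%, 1.43% to 3.77%), against 0.323% (0.0882% to 0.826%) of distal intronic peaks, 11.4% (10.6% to 12.3%) of promoter peaks and 0.435% of windows. The 3 intervals do not overlap, and the share of the members lay between those of distal intronic and promoter peaks. The classes were not matched for distance to a TSS, as members began at 501 bp and distal intronic peaks beyond 2000 bp. With member summits more than 1000 bp from every TSS, the DRE was in 2.26%. Ohler 1, GGTCACAC, was in 7 members (0.933%, 0.376% to 1.91%), against 0.485% of distal intronic peaks, 9.75% of promoter peaks and 0.266% of windows. Ohler 7, CA(G/T)CNCT(A/G), was in 72 members (9.6%, 7.59% to 11.9%), against 5.25% (4.08% to 6.65%) of distal intronic peaks, 21% (19.9% to 22.1%) of promoter peaks and 5.88% of windows. Ohler 6, GTAT(A/T)TTT, was in 6.53% of members, 7.11% of distal intronic peaks, 10.6% of promoter peaks and 4.71% of windows. At least 1 of these 4 elements was in 135 members (18%, 15.3% to 20.9%), against 12.7% of distal intronic peaks, 42.5% of promoter peaks and 10.9% of windows. The members with 1 had a median signal of 220.5, against 182 for those without.

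The DRE member between hry and SrpRbeta, printed above, lay 1444 bp from the nearest TSS and 168 bp outside the SrpRbeta gene, which encodes a subunit of the signal recognition particle receptor. Its signal was 868 in the thresholded list, and 235, 167 and 480.3 in replicates 1, 2 and 3. DRE matches were in 10 members less than 50 bp from the summit and in 8 at 50 to 99 bp, against 0 to 3 in each bin from 100 to 499 bp. Every DRE contains CGATA, the BEAF-32 sequence searched here, which was in 179 members (23.9%, 20.9% to 27.1%), against 22.4% of distal intronic peaks, 45.7% of promoter peaks and 19.9% of windows.

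The GAAC site GAAC(C/T)AG and its palindromic form were searched because earlier results of these data had them at strong peaks, so their place among strong members is a description and no separate result. This site was in 47 members (6.27%, 4.64% to 8.25%), against 4.93% (3.79% to 6.29%) of distal intronic peaks, 4.26% (3.74% to 4.84%) of promoter peaks and 2.73% of windows. The palindrome was in 11 members (1.47%, 0.734% to 2.61%), against 1.62% (0.99% to 2.49%) of distal intronic peaks, 0.319% (0.186% to 0.511%) of promoter peaks and 0.045% of windows. The 11 were 2.2% of the members left without replicate 1, 2.29% without replicate 2 and 2.58% without replicate 3. All 11 had support in all 3 replicates, against 53.5% of all members and 64.2% of all peaks, and support rose with signal. Their median signal was 485, against 185 for the other members. Of the 25 strongest members 28% held the GAAC site and 20% the palindrome, against 10.7% and 2.67% of the next 75, and 4.8% and 0% of the weakest 250. The CTCF core was spread otherwise, with 8% of the first 25, 2.67% of the next 75, 8.67% at places 101 to 250, 5.2% at places 251 to 500 and 4% in the weakest 250. The Grainy head sequence AACCGGTT was in 7 members (0.933%) and 0.125% of windows, and 2 of these members also had the palindrome, in which it can lie.

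Most sequences of early patterning factors were near the level of intergenic DNA at large. The Zelda site CAGGTAG, bound by an activator of the early embryonic genome, was in 9 members (1.2%, 0.55% to 2.27%) and 0.885% of windows. The Pho core GCCATNTT, of a Polycomb recruiter, was in 4.4% of members (3.05% to 6.12%) and 4.55% of windows. Bicoid's GGATTA was in 5.07% (3.61% to 6.89%) and 6.59%, the homeodomain core TAATTA in 13.7% (11.3% to 16.4%) and 14.2%, the Dorsal site GGNNNTTCC, with A or G at its first N and A or T at the others, in 1.07% (0.462% to 2.09%) and 1.43%, and the Snail-type E-box CAGGTG in 6% (4.41% to 7.95%) and 6.12%. GAGA repeats, GAGAGAG, were in 2.4% of members (1.43% to 3.77%) and 2.19% of windows, and CA repeats, CACACACA, in 4.27% and 3.96%. In these the share of all windows lay inside the interval of the members. At the GC content of the members, Bicoid's sequence was in 6.97% of windows, just above the interval of the members. The others stayed inside it. Caudal's TTTATG was at 26.1% (23% to 29.4%), against 22.7% of all windows and 24% of windows at the GC content of the members. The TATA box TATAAA had 31.9% (28.5% to 35.3%), against 23.2% of all windows and 27.6% at the members' GC. The remaining sequences were the initiator TCAGT(C/T) with 19.3% against 17.4%, the E-box CAGCTG with 5.73% against 6.91%, the Twist E-box CATATG with 7.33% against 5.71%, the STAT site TTCNNNGAA with 4.67% against 6.13%, the AP-1 site TGA(C/G)TCA with 1.73% against 1.46% and the ETS site CCGGAAGT with 0.667% against 0.313% of windows. For the STAT site the interval of the members was 3.27% to 6.43%, below the 6.72% of windows at the members' GC. A match in a window is a description of its letters and was not tested as a bound site.

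**Figure D2:**
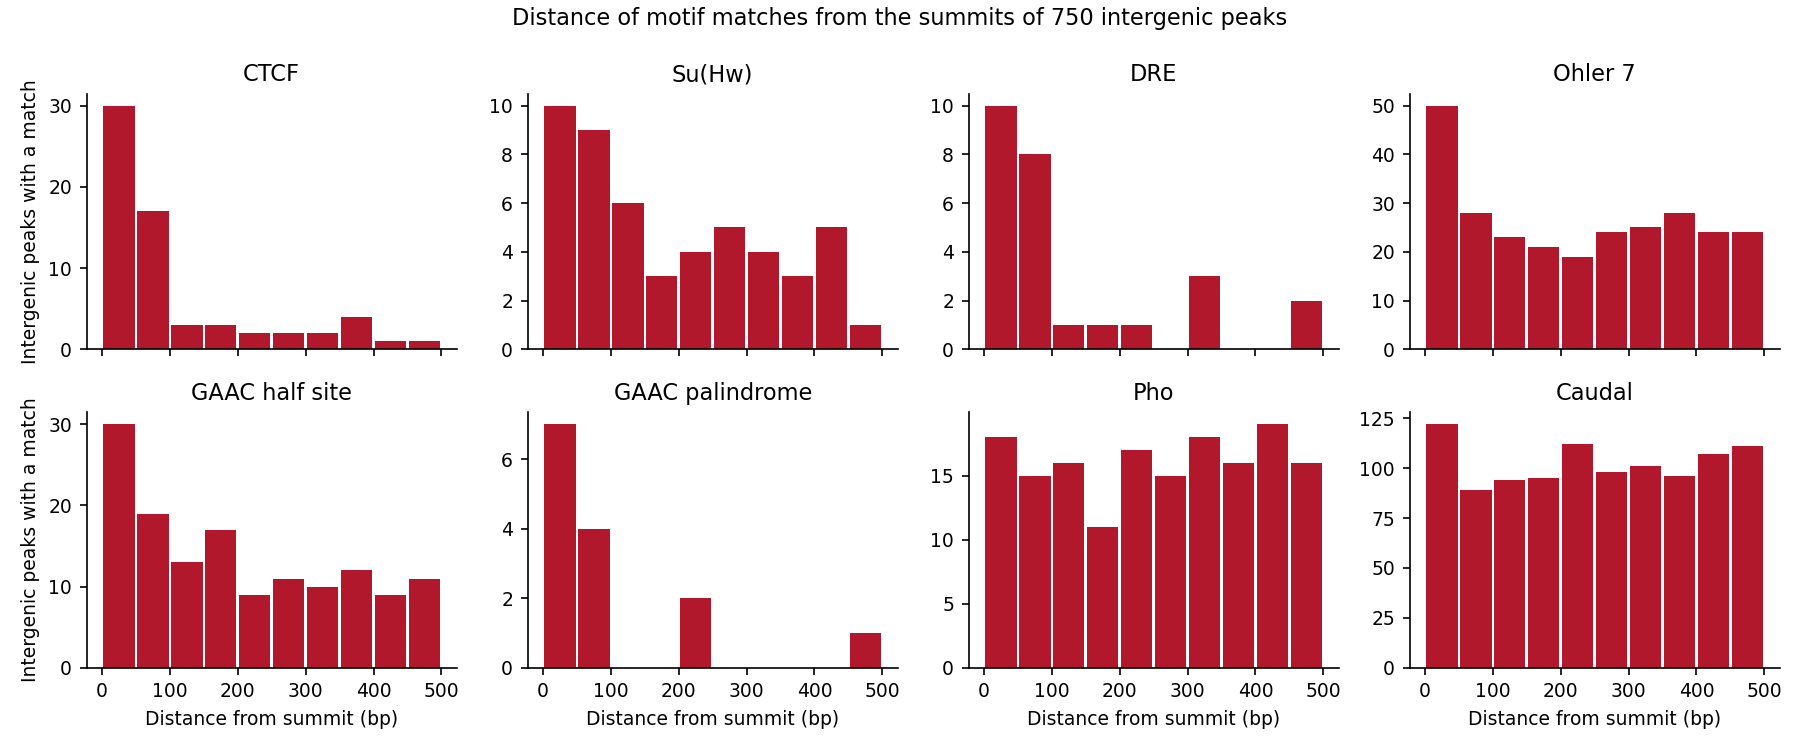
Number of the 750 intergenic peaks with a motif match in each 50 bp bin of distance from the summit, for 8 motifs. CTCF, DRE and the GAAC palindrome pile up in the first 2 bins. Pho has 11 to 19 in each of the 10 bins, and Caudal has 122 in the first and 89 to 112 in the others.

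The signal of the members ranged from 119 to 4647, with a median of 185 and quartiles of 143 and 291. The median was 184 for distal intronic peaks and 266 for promoter peaks, both limited to the same range. Members ranked from 207 to 8703 of 8708, with a median rank of 5684. Of the members 47 were among the 1000 strongest peaks and 257 in the upper 50% of the list. Members made up 8.61% of all peaks, and the signal limit barred them from the first 202 places. These counts therefore describe the choice of peaks too. A signal of 1000 or more was found in 22 members and one of 500 or more in 71. The deposited interval was 424 bp wide for 567 of the 750, and 487 were at the maximum of the capped q value, a −log10 q of 4.127. Just inside the signal limit were the members of 4647, 3031 and 2975, and just outside it intergenic peaks of 5604, 6494 and 14488. Just inside the TSS limit were summits 501 bp from ds, with a signal of 205, 505 bp from so, with 122, and 506 bp from Npc2b, with 1434. Just outside it were summits 500, 499 and 497 bp from the nearest TSS, with 132, 489 and 151.

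The strongest member lay on 2R at 6648064, 590 bp upstream of Debcl, a pro-apoptotic Bcl-2 family gene, with Fmo-2, a flavin monooxygenase gene, on the other side. Its signal was 4647, and it had 1334, 1039 and 2299 in replicates 1, 2 and 3, where it ranked 205, 214 and 208. The second, on X at 21044604, lay 534 bp upstream of Cbs, which encodes cystathionine beta-synthase, with 3031 and replicate values of 698, 814 and 1539. A pair of summits in 1 interval on 3L, at 7058601 and 7058800, had 2975 and 2791, between Mp, the collagen XV/XVIII gene, and CG8641. The pair's second summit had no entry within 100 bp in the list of replicate 1. On 3L at 4440276 a summit between CG15021 and CG12607 had 2972, and one at 14562838 had 2600.4, with the neuropeptide gene Lk (Leucokinin) as the nearest coding TSS at 2074 bp. The ranks of the second to sixth members in the replicate lists lay between 235 and 277 wherever they were found.

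The rest of the 20 strongest were mixed in their neighbours. On 3R a summit at 16222495, between mtSSB and tara, a gene of transcriptional regulation in development, had a signal of 1504, and 300.1, 355 and 839 in the replicates. One at 14089011, 506 bp from Npc2b, a sterol-binding protein gene, and beyond the end of foxo, had 1434. The summit on 2R at 13035332 lay 11924 bp from the nearest TSS in the gap beside Su(z)2, a relative of the Polycomb group gene Psc, with 1405. The summit at 6106927 on 3R, whose palindrome is printed above, lay between Gasp, a chitin-binding protein gene of the tracheal lumen, and the odorant-binding protein gene Obp83cd. It had 1344, and 396, 316 and 639.7 in the replicates. Others were on 3L at 16335095, between CG13056 and CG4998 (1618), on 2L at 10687602, between CG7296 and CG7294 (1314), on 3R at 12403116, between Sol1 and the cytochrome P450 gene Cyp9f2 (1308), and on 3R at 21520379, 549 bp from sp3 and beyond the homeobox gene C15 (1245). On 2L summits at 12026551, beside dmGlut, and at 12012359, between the opsin gene Rh5 and Wdr81, had 1175 and 1123. Those on X at 494008, between CG17896 and CG17778, and on 2R at 4192290, between RNASEK and the Integrator subunit gene IntS3, had 1073 and 1070.2. Of the 20, 19 had support in all 3 replicates.

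Support in the replicate lists followed the signal. Of the 750 members 527 had support in replicate 1 (70.3%), 545 in replicate 2 (72.7%) and 671 in replicate 3 (89.5%), against 79.8%, 80.2% and 90.4% of all 8708 thresholded peaks. In all 3 replicates 401 members had support (53.5%, 49.8% to 57.1%), against 64.2% of all peaks, 49% (46.2% to 51.8%) of distal intronic peaks and 70% (68.8% to 71.2%) of promoter peaks. A further 205 members had support in 2 replicates, 130 in 1 and 14 in none. The thresholded list was made with the replicate lists, so support is not independent of the choice of peaks. Of the 25 strongest members 24 had support in all 3 (96%), then 98.7% of the next 75, 95.3% at places 101 to 250, 55.2% at places 251 to 500 and 8.8% of the weakest 250. Members exceeded distal intronic peaks by 0.0161, 3.63 and 1.19 percentage points in replicates 1, 2 and 3, a mean of 1.61 ± 1.84 (SD, n = 3), and differed from promoter peaks by -13.7, -11.6 and -1.52 points, a mean of -8.96 ± 6.53. The exact sign-flip test gave p = 0.25 for both, adjusted 0.25, the smallest 3 lists allow. Among all 30000 entries of each replicate list, 696, 696 and 740 members were found within 100 bp, with median ranks of 5934, 5656 and 5526 and median summit offsets of 16, 18 and 6 bp. Replicate 3 thus held the most members, at the shortest offsets. The median rank percentile among the strongest entries was lower for members than for distal intronic peaks by 4.89 points in replicate 1 and differed by less than 0.1 in replicates 2 and 3 (mean difference -1.59 ± 2.86, SD, n = 3; exact p = 1).

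**Figure D3:**
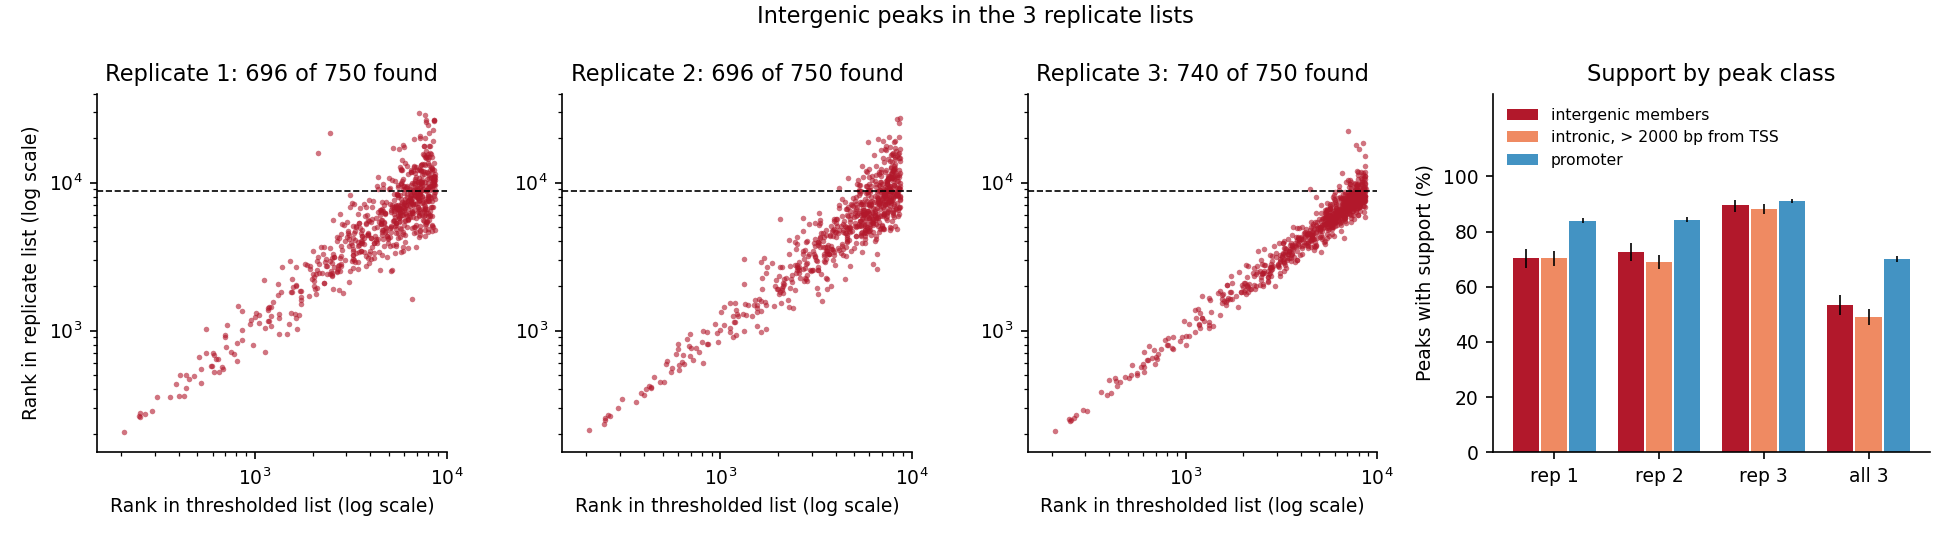
Left 3 panels: rank of each intergenic peak in a replicate list against its rank in the thresholded list, both on log axes, with a dashed line at rank 8708. Right panel: percent of intergenic, distal intronic and promoter peaks with support in each replicate list and in all 3, with 95% Clopper-Pearson intervals. Support in all 3 was 53.5%, 49% and 70%.

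Members thinned out with distance from annotated starts. The median distance to the nearest TSS was 2202 bp, with quartiles of 1083 and 4573 bp and a maximum of 37655 bp. Per Mb of eligible DNA, which is all DNA outside gene bodies and more than 500 bp from a TSS, there were 61.9 members (exact Poisson 95% interval 53.1 to 71.8) at 501 to 1000 bp, 37 (31.7 to 43.1) at 1001 to 2000 bp, 26.9 (23.6 to 30.5) at 2001 to 5000 bp, 14.2 (11.6 to 17.3) at 5001 to 10000 bp, 10.6 (7.95 to 13.9) at 10001 to 20000 bp and 1.26 (0.604 to 2.32) beyond 20000 bp. Neighbouring intervals overlap only between the 5001 to 10000 and 10001 to 20000 bp bins. Much of the farthest DNA is repeated: 70.8% of it had more than 50% of the 31-mers within 100 bp in more than 1 place of the assembly, against 5.3% of the nearest bin. Over the DNA that was not mostly repeated, the density was 65.4, 39.6, 29.6, 17, 14.6 and 4.31 per Mb in the same bins, so the order held. Median signal moved little, from 202 in the nearest bin to 176 at 5001 to 10000 bp and 200.1 in the farthest, which holds 10 members. The 5 farthest were on 3L at 1139621, 37655 bp from bab2, a gene of leg and abdomen patterning, on 2R at 6465008 (36764 bp), on 3L at 10735345 and 10737396 (36580 and 34529 bp) and on 3L at 6824011, 33853 bp from the POU-domain gene vvl, with signals of 259, 163, 148, 322 and 145.

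**Figure D4:**
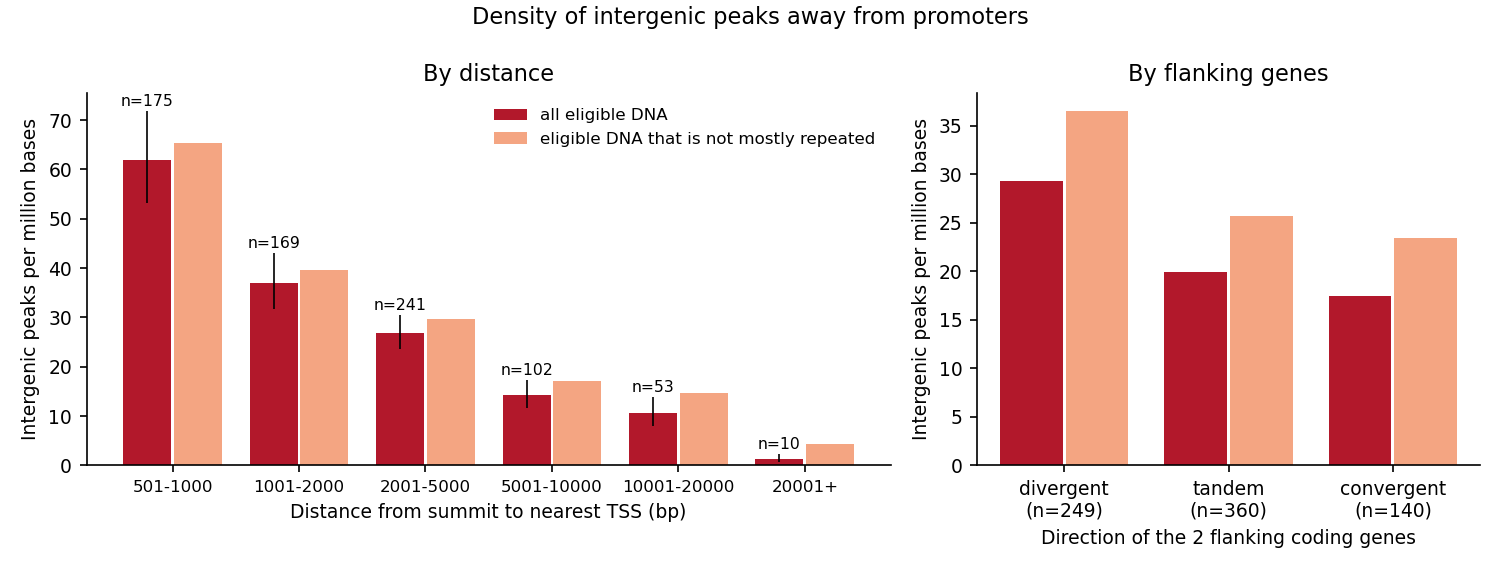
Intergenic peaks per Mb of eligible DNA by distance to the nearest TSS (left, with exact Poisson 95% intervals and the number of peaks) and by the direction of the flanking coding genes (right), over all eligible DNA and over the DNA that is not mostly repeated. Density falls from 61.9 at 501 to 1000 bp to 1.26 beyond 20000 bp, and is highest between divergent genes. The groups on the right are not matched for distance to a TSS.

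Between divergent genes, whose starts face each other, lay 249 members (33.2%, 29.8% to 36.7%), against 23.3% of the eligible DNA. Tandem genes flanked 360 (48%, against 49.7% of the DNA) and convergent genes 140 (18.7%, 15.9% to 21.6%, against 21.9%). Per Mb this was 29.3 between divergent, 19.9 between tandem and 17.5 between convergent genes, and 36.5, 25.7 and 23.4 over DNA that was not mostly repeated. Median signals were alike, at 189, 182 and 187. Density also fell with distance from a TSS, and these arrangements were not matched for that distance. With summits more than 1000 bp from every TSS, 28.9% of members lay between divergent and 22.8% between convergent genes. The DNA shares at that limit are not given here, and the part of distance in the order was not tested. Members lay on the 5′ side of the nearest coding TSS in 66% (62.5% to 69.4%), against 59.2% of the windows. Within 2000 bp of a coding TSS this was 84.8% (80.1% to 88.7%), against 79.7% of windows.

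A promoter peak at the nearest coding gene was more frequent for members than for windows, and near the share over all coding genes. It was found for 295 of 750 members (39.3%, 35.8% to 42.9%), against 17.7% of windows, and at 42.9% of all coding genes. Within 2000 bp of a coding TSS it was found for 44.6% of members (38.8% to 50.6%) and 18.2% of windows, and farther away for 36% (31.6% to 40.6%) and 17.6%. With windows that were not mostly repeated it was 39.3% against 17.7%. Of the 40 members with a CTCF core, 18 were nearest to a gene with a promoter peak. The nearest TSS of any kind belonged to a non-coding gene for 28.4% of members (25.2% to 31.8%), against 33.3% of windows.

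Repeated DNA held few members. Only 2 of 750 had mostly repeated 31-mers around the summit (0.267%, 0.0323% to 0.96%), against 26.9% of the windows, and distal intronic, promoter and the strongest peaks had 0, 2 and 0. Annotated transposable elements held 5 member summits (0.667%, 0.217% to 1.55%), against 11.1% of all windows and 3.09% of those not mostly repeated. These 5 were in 2 copies of INE-1, 2 of the 1360 element and 1 of H, with signals from 163 to 331. How reads in repeats were treated before deposit was not given in the sources used here, and its part in these shares was not tested.

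Densities on the large arms lay between 15 and 24.3 per Mb. The value for chromosome 4 was higher, but it rests on 10 members and no interval was computed by arm. There were 21.1 members per Mb of eligible DNA on X, 24.3 on 2L, 15 on 2R, 21.6 on 3L and 20.5 on 3R, and over DNA that was not mostly repeated 29, 29.2, 24.3, 30.1 and 24.9. Chromosome 4, the small and largely heterochromatic dot chromosome, had 10 members in 0.245 Mb, or 40.8 per Mb (68.3 over DNA that was not mostly repeated). These were 10 of the 23 peaks on that chromosome (43.5%), against 8.61% of all peaks that were members. The strongest, at 497907 between Asator and zfh2, a zinc finger homeodomain gene, had a signal of 664, and 137, 156 and 376 in the replicates. The next, at 424813, lay between dati and lgs, the Wnt pathway gene legless, with 574, and the third, at 68703 between RpS3A and pan, the TCF gene of Wnt signalling, with 411. Others flanked the eye gene ey, toy and Sox102F; these 3 genes were chosen after their values were seen.

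Members were single in most places and crowded in a few. With neighbours joined when at most 5000 bp apart, 486 of 750 stood alone and 72 pairs and 16 triplets followed. Of 5532 gaps between coding genes that contain eligible DNA, 526 held a member, 407 of them exactly 1, and 17 held 4 or more, with 112 members in all. The gap between RFeSP, the Rieske iron-sulfur protein gene of mitochondrial complex III, and chinmo, a BTB zinc finger gene of neuronal timing, had 14 members in 27.2 kb, or 514 per Mb. A run of 10 of them spanned 2L 1628064 to 1643486, with signals from 132 to 970.0. Of the 10, 7 had support in all 3 replicates, against 53.5% of all members and 64.2% of all peaks. The strongest, at 1643486, had 234, 197 and 542 in replicates 1, 2 and 3, and the one at 1638744, with 948, had 197, 175 and 569.6. Both were high in every list, and the 2 summits of the run with support in 1 replicate were the weakest, at 132 and 143.

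The gap after hry (hairy), a pair-rule repressor of segmentation, had 10 members in 38.7 kb up to SrpRbeta. A run of 8 spanned 3L 8689884 to 8705046, with signals from 119 to 477. In this run 4 had support in all 3 replicates, against 53.5% of all members and 64.2% of all peaks. Its strongest, at 8696613 and 8689884, had 477 and 446. The first of these had 98.7, 111 and 259 in the replicates and the second 113, 81.6 and 256. A run of 7 near Rh5 on 2L, from 12003176 to 12012359, had a median signal of 534, and all 7 had support in all 3 replicates. The 7 between noc, a zinc finger gene of head and appendage development, and CG33648 had a median of 174, with 3 supported in all 3. The run of 6 between NijA, the cell surface protein gene Ninjurin A, and CG43245 had a median of 272 and 4 supported in all 3. Between COX7AL2 and CG31668 there were 5 members in 5.31 kb. The gap between mtSSB and tara had 6 in 14.4 kb, of which the 3 of highest signal (1504, 1008 and 717) had support in all 3 replicates and the other 3 in 1 each.

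Genes of 19 lists differed in how many had a member beside them. Of 7860 coding genes with eligible DNA next to them, 970 (12.3%, 11.6% to 13.1%) had a member in that DNA, at 20.6 members per Mb. Of the neural and sensory fate genes 8 of 17 did (47.1%, 23% to 72.2%), with 38.4 per Mb. Of the dorsoventral and mesoderm genes it was 7 of 16 (43.8%, 19.8% to 70.1%; 46.4 per Mb), of the Wnt pathway 7 of 17 (41.2%; 52.9), of the appendage and tracheal genes 9 of 24 (37.5%; 16.9), of the EGF and FGF pathways 5 of 14 (35.7%; 27.3), of the pair-rule and segment polarity genes 6 of 19 (31.6%; 26.6) and of the gap and maternal genes 4 of 13 (30.8%; 12.1). The intervals of these lists, except that of the gap and maternal genes (9.09% to 61.4%), lay above 12.3%, and that of the pair-rule list began at 12.6%. Several of these shares rest on members without support in every replicate, that is, among its 8708 highest entries. When members needed support in both other replicates, all coding genes had 9.01% without replicate 1, 8.73% without replicate 2 and 7.98% without replicate 3. In the same order the Wnt list then had 17.6%, 35.3% and 11.8%, the pair-rule list 10.5%, 15.8% and 10.5%, the dorsoventral list 18.8%, 25% and 31.2% and the neural list 41.2%, 29.4% and 29.4%. The EGF and FGF list had 35.7% and the gap list 30.8% each time. Among the stronger 50% of members the pair-rule list had 10.5% and the dorsoventral list 6.25%, against 7.2% of all coding genes. The share counts genes and grows with the length of the DNA beside them. Density in turn fell with distance from a TSS, from 61.9 per Mb at 501 to 1000 bp to 1.26 beyond 20000 bp. The lists were not matched for length or distance, so neither measure is free of them. By density the appendage and gap lists were below the value for all genes. Counts over genes in 1 list share members where genes are neighbours, and some genes, such as nub, kni and vn, stand in more than 1 list. The cuticle and chitin genes had 7 of 143 (4.9%, 1.99% to 9.83%; 12.5), with an interval below 12.3%, and 2.1% to 2.8% when 1 replicate was left out. The intervals held 12.3% for the odorant-binding and immune peptide genes, with 4 of 62 (6.45%, 1.79% to 15.7%; 8.94), the serine protease and gut genes, with 1 of 28 (3.57%, 0.0904% to 18.3%; 14.1, and 0% without any 1 replicate), and the chorion and vitelline genes, with 0 of 12, where the 95% interval reaches 26.5%. Chemoreceptor genes had 13 of 115 (11.3%, 6.16% to 18.6%; 11.1), and 5.22% without replicate 2, 6.96% without replicate 3 and 7.83% without replicate 1. The lists were chosen with results of these data known and were not tested against each other.

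**Figure D5:**
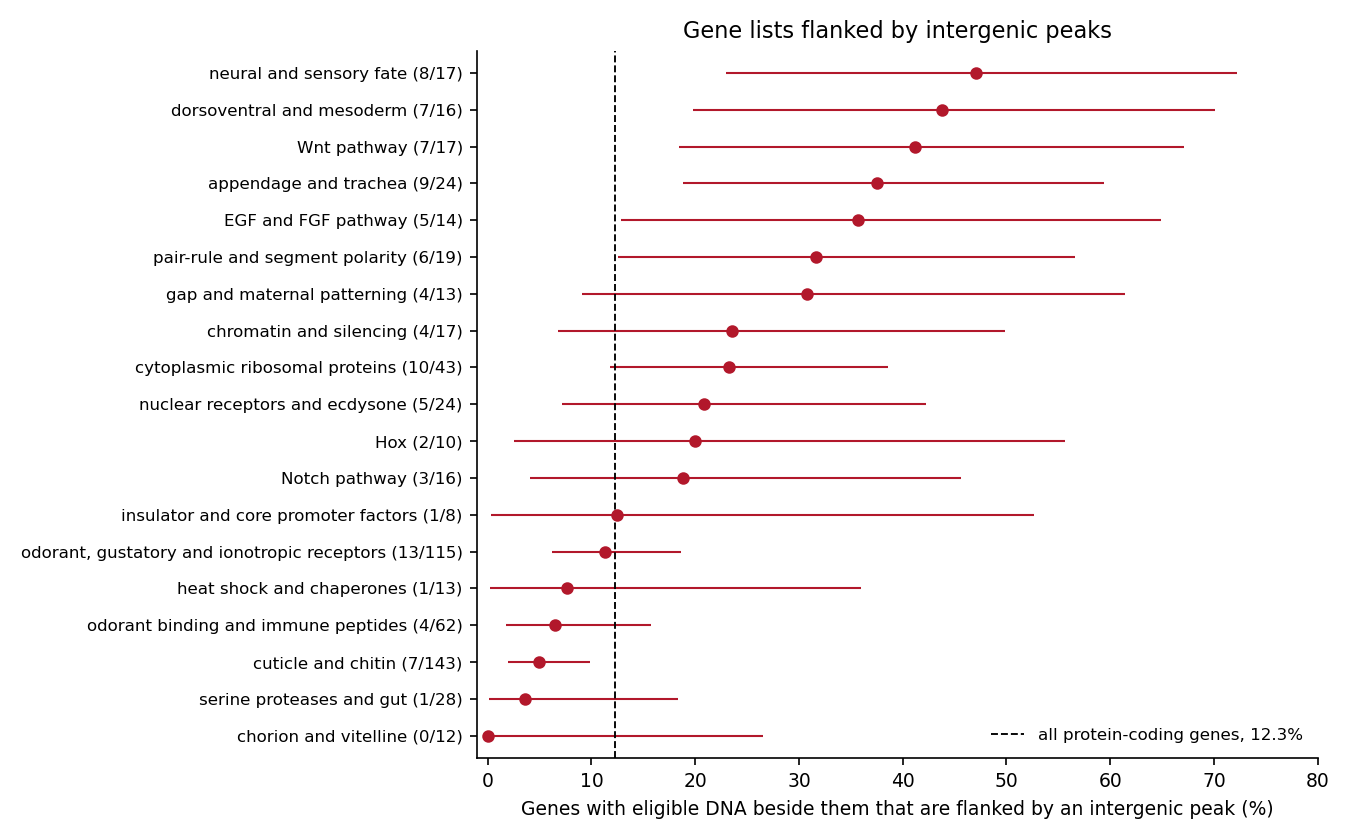
Percent of the genes of each list, among those with eligible DNA beside them, that were flanked by an intergenic peak, with 95% Clopper-Pearson intervals and the counts in brackets. The dashed line is the 12.3% of all coding genes. The intervals of the neural, dorsoventral, Wnt, appendage, EGF and FGF and pair-rule lists lie above it, and that of the cuticle list below it.

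Within the lists a few genes carried several members. The pair-rule gene hry, on 3L from 8675759 to 8679253, had 11, of which 7 were supported in all 3 replicates, and it had a promoter peak as well. Support in all 3 replicates was found for 53.5% of all members and 64.2% of all peaks. The POU-domain gene nub had 3, all supported in all 3 replicates, with signals from 182 to 2234. The neural Sox gene SoxN had 3 (129 to 259), the BMP antagonist gene sog 3 (157 to 173), the receptor tyrosine kinase inhibitor gene sty (sprouty) 3 (173 to 355) and the ecdysone-response gene Eip75B 3 (138 to 168, none supported in all 3 replicates). Of the Hox genes abd-A had 2 (253 and 719) and Antp 1 (202). The segment polarity genes ptc and wg had 1 each, with 227 and 177, and the mesodermal T-box gene Doc1 had 2, with 181 and 152.

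Further lists describe housekeeping and silencing genes. Ribosomal protein genes had a promoter peak in 72 of 75 cases (96%), against 42.9% of all coding genes. Of the 43 with eligible DNA beside them 10 were flanked by a member (23.3%, 11.8% to 38.6%), with 19.1 members per Mb. With summits more than 1000 bp from every TSS this was 11.6%, against 9.45% of all coding genes. The members beside RpS27, RpL17, RpS3A and RpS23 had signals of 656, 485, 411 and 399. In the chromatin and silencing list 4 of 17 were flanked (23.5%, 6.81% to 49.9%), and 20 of 27 had a promoter peak (74.1%, against 42.9% of all coding genes). Psc, a Polycomb group gene, had 4 members with signals from 214 to 469, of which 2 were supported in all 3 replicates. The neighbouring Polycomb group genes ph-d and ph-p shared 2 members, of 519.8 and 252, and tej had 2. Other lists, all with intervals that held 12.3%, were the nuclear receptors, with 5 of 24 (20.8%, and 12.5% without replicate 3), the Hox genes, with 2 of 10, the Notch pathway, with 3 of 16 (18.8%, and 12.5% without any 1 replicate), insulator and core promoter factors, with 1 of 8 (0% without replicate 1 or 3), and heat shock genes, with 1 of 13 (7.69%). For all coding genes the share was 9.01% without replicate 1, 8.73% without replicate 2 and 7.98% without replicate 3.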

How the data were processed

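Anti-GFP ChIP-seq was done on 3 biological replicates of CG15514-eGFP embryos of 0 to 24 hours, with chromatin sonicated to 200 to 800 bp, per the labels. The deposited files used are dm6 peak lists of 30000 entries for each replicate and for the pooled replicates, and a thresholded list of 8708 peaks. The deposited height is a signal value of the authors' caller, the deposited significance is a −log10 q value, and the summit position is the authors' offset in each interval. Which aligner, caller, control and reproducibility threshold lie behind them is not given in the sources used here. The lists hold no counts, so depth is unknown, and intervals cover counting error over peaks, genes or DNA only. Peak lists of the older build were not used.

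Coordinates are counted from 1. Annotation was Ensembl 115 (FlyBase 6.54) and sequence was the RefSeq copy of Release 6. Peak-free windows of 201 bp tiled all eligible DNA outside thresholded intervals. Motifs and 31-mer repeats were computed with Python 3.11.15, NumPy and SciPy. The motif search, peak classes, intervals and sign-flip test were tested on simulated data. Differences over replicate lists used an exact sign-flip test, two-sided; p-values measure the spread between these 3 samples only. The members, lists and motifs were chosen with earlier results of these data known. Named members are the 20 strongest, the 5 farthest from a TSS, the 5 largest groups, up to 4 genes per list, up to 2 members per motif off arm 2R, those nearest the limits and 10 8-mers. A synonym was needed for 11 names of the gene lists, and 6 names had no counterpart in the annotation. Alternatives are in the closing section.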

Additional observations from a re-analysis of the deposited data

How the results depend on the processing

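Of 128 alternative values of the main results, 106 stayed within the interval of the reported value (for the number of peaks, within 1.5 times). Of 82 alternative values of differences, 4 changed sign, all named here. Of 334 values of single motifs and lists, 279 stayed. With summits more than 1000 bp from every TSS the median distance was 3262 bp, 22.8% of members lay between convergent and 28.9% between divergent genes. With coding genes alone annotated, the median distance was 3244 bp. The stronger 50% were 375 members, with a median signal of 291 and 87.2% supported in all 3 replicates. Support in all 3 was 40.7% with summits within 50 bp, 58.4% within 200 bp and 85.9% among all entries of the replicate lists. Leaving out 1 replicate and asking for support in both others left 427 to 501 members (427 without replicate 3, 480 without replicate 2) with a median signal of 238 to 265. In windows of 50 bp on each side, the DRE was in 1.33%, GAGA in 1.33% and the GAAC site GAAC(C/T)AG in 3.6%, with a mean GC of 37.5%. In windows of 200 bp GAGA was in 7.07% and the GAAC site in 9.47%, with a mean GC of 39.5%. The cause of these shifts was not tested. The difference in rank percentile between members and distal intronic peaks was -2.42 to 0.066 without 1 replicate, so its sign turned without replicate 1.

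The CTCF share was 5.62% to 6.59% without 1 replicate. Shares of rare sequences moved by over 1.5 times: Ohler 1 and Grainy head were both at 1.41% without replicate 3, ETS at 1.04% and transposable elements at 1.04% without replicate 2, and the palindrome is given above, as are the gene lists. Windows weighted to the members' GC or without mostly repeated DNA were alternatives chosen after seeing the data, and no difference in motif share changed sign under them where the interval of the members excluded the share of the windows. Where it did not, the differences for the CAGCTG and CAGGTG E-boxes became 0.0465 and 0.743 percentage points under the GC weighting, and that for CA repeats became -0.697 without repeated DNA. No paired analysis was possible because there is 1 group. Depth is unknown, so no limit from read number can be given.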
